A study of Homo sapiens with 12 samples.

Results

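The matrix metalloproteinases (MMPs) and tissue inhibitors of metalloproteinases (TIMPs) described here are 10 genes of the 16383 in the deposited table, taken as the rows whose symbol is MMP1, MMP2, MMP3, MMP10, MMP12, MMP14, TIMP1, TIMP2, TIMP3 or TIMP4. Their RNA was measured by poly(A) RNA sequencing in IMR90, an established line of human lung fibroblasts labelled wild type, so all 12 libraries come from 1 cell line. There were 4 groups of 3 libraries. Proliferating cells were labelled as untreated. The other cells were made senescent by ionizing radiation (20 Gy within 10 min) and were collected 11 days later. They received DMSO, Palbociclib at 2 µM or Ruxolitinib at 2 µM, the inhibitors being given on days 4, 6, 8 and 10. Palbociclib inhibits the cyclin-dependent kinases CDK4 and CDK6, and Ruxolitinib inhibits the Janus kinases JAK1 and JAK2. The proliferating cells were labelled as untreated, and no collection day is listed for them. Irradiation, DMSO and time in culture therefore cannot be told apart in comparisons with them. The labels do not say whether the replicates were separate cultures, so p-values measure the spread between these libraries, which may be technical.

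MMPs are zinc-dependent proteases that are made as inactive precursors, and between them they cleave most proteins of the extracellular matrix. TIMPs are small secreted proteins that bind the active site of MMPs and block it, so the proteolytic capacity of a fibroblast depends on both families. Senescent fibroblasts are known for secreting MMP1, MMP3 and MMP10 as part of the senescence-associated secretory phenotype.

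Recovered reads per library ranged from 14106799 to 21762412. All 12 fibroblast markers listed had a mean of at least 10 normalized counts, and their summed level was 823066 to 855783 in proliferating, 409294 to 419962 in DMSO, 652064 to 684327 in Palbociclib and 516322 to 520506 in Ruxolitinib libraries. CDKN1A, a cell cycle inhibitor that senescent cells express, had a mean of 3389 normalized counts in proliferating and 29150.3 in senescent DMSO cells, and MKI67, a marker of cycling cells, 13062 and 1011. With Palbociclib both were lower than with DMSO, at 14779 and 82.5 (adjusted p = 3.37e-09 and 1.70e-12). With Ruxolitinib they were at 31744 and 700. LMNB1, also checked, had means of 3911 in proliferating, 153 in DMSO, 31.5 in Palbociclib and 129 in Ruxolitinib cells. In bulk RNA, fewer cells that express a gene and less RNA per cell cannot be told apart. The authors' factors leave different totals per group. With equal totals instead, the log2 fold change of the median gene moves by 0.23 for DMSO against proliferating cells and by -0.23 for Palbociclib against DMSO. At equal totals 46.9% of all genes tested were higher and 26.4% lower in DMSO than in proliferating cells, and for Palbociclib against DMSO these shares were 8.36% and 46.0%. MMP12 passed the filter on low values (a mean of at least 10 over all libraries) only through the groups in which it was high, so it is described without a test, and members called are counted among the other 9.

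Per kilobase of the MANE Select transcript, the normalized count of TIMP1 was the highest in every group, and those of MMP12, MMP10, TIMP4 and MMP3 were the 4 lowest. In proliferating cells the order from high to low was TIMP1, MMP14, TIMP2, MMP2, TIMP3, MMP1, MMP3, TIMP4, MMP10 and MMP12, with MMP2 and TIMP3 changing places when all annotated exons set the length. TIMP1 had a mean of 11787 normalized counts per kilobase there, MMP14 had 6356 and MMP1 had 1527. In the 3 senescent groups TIMP3 stood second, ahead of TIMP2 and MMP14. MMP1 ranked above MMP2 in DMSO and Ruxolitinib cells and below it in Palbociclib cells, at 3326, 2810 and 647 normalized counts per kilobase in that order of groups.

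**Figure D1:**
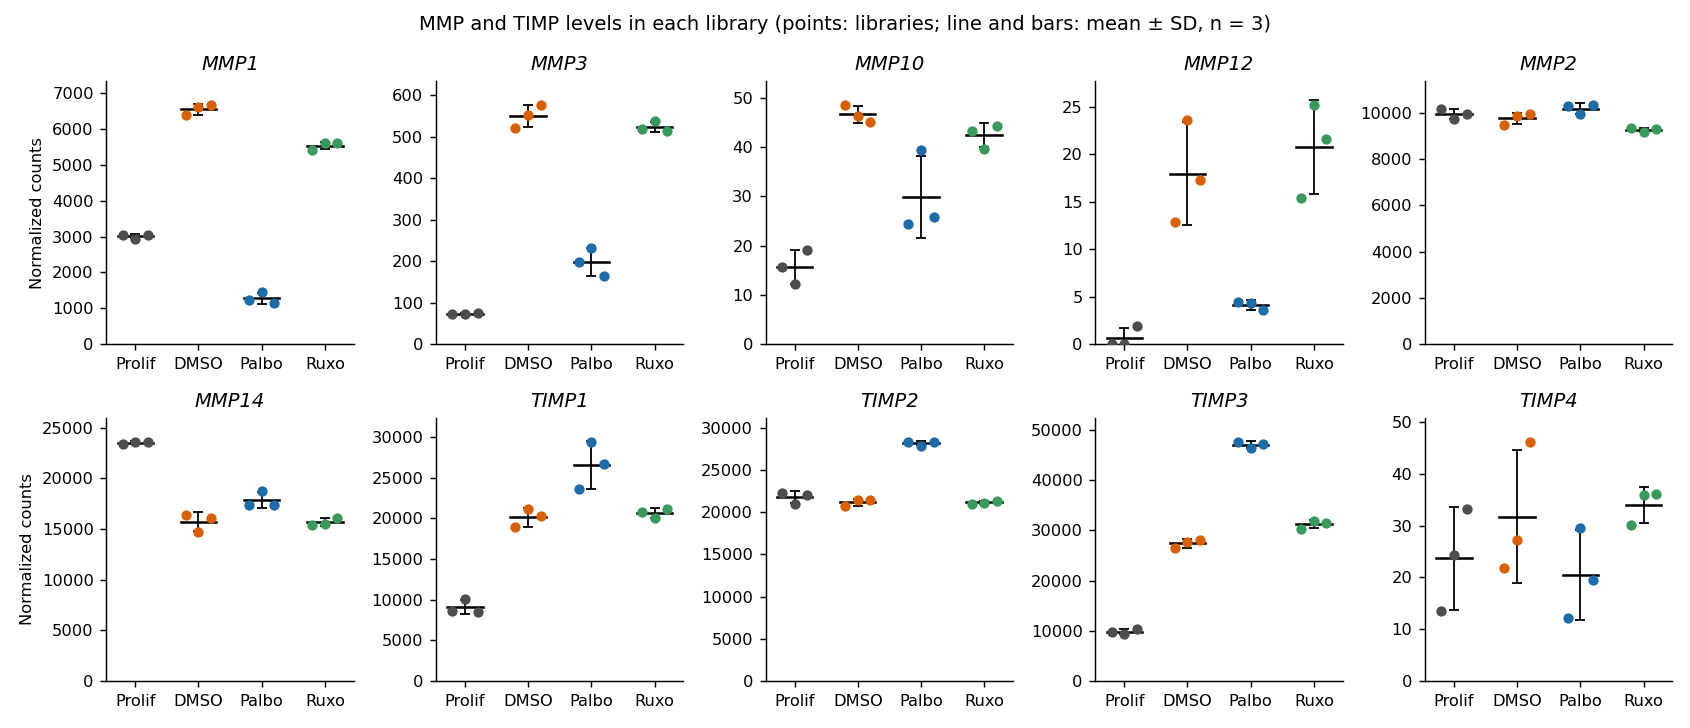
Normalized counts of the 10 members (vertical axes, each with its own scale) in proliferating, senescent DMSO, Palbociclib and Ruxolitinib libraries (horizontal axes). Points are libraries, and lines with bars are the mean ± SD of 3; MMP1 and MMP3 were lower with Palbociclib than with DMSO, and TIMP3 was higher.

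Comparing senescent DMSO with proliferating cells sets irradiation and DMSO together against cells labelled as untreated. The collagenase MMP1, the stromelysins MMP3 and MMP10 and 2 of the 4 inhibitors rose, while the membrane-bound MMP14 fell. Of the 9 members, 5 were called higher and 1 lower at an adjusted p under 0.05, where 33.0% of the 11242 genes tested were higher and 39.3% lower (72.4% in either direction). The higher members were MMP1, MMP3, MMP10, TIMP1 and TIMP3. In 6 of the 9 the 2 groups did not overlap, against 75.1% of all genes tested, so the count of changed members was near the background.

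Comparing Palbociclib with DMSO in senescent cells asks how CDK4/6 inhibition after irradiation alters them. MMP1, MMP3 and MMP10 were called lower, and MMP14, TIMP1, TIMP2 and TIMP3 higher, which makes 3 of 9 lower and 4 of 9 higher. MMP2 (log2 difference 0.062) and TIMP4 (-0.63) were not called. Among all genes tested, 22.3% were lower and 26.0% higher (48.3% in either direction). In 7 of the 9 the groups did not overlap, against 54.8% of all genes tested.

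Markers of other cell types also differed between these groups. Of 6 epithelial markers 4 were tested, and 3 were higher with Palbociclib than with DMSO: KRT18, a keratin, rose from 1329 to 2912 normalized counts (adjusted p = 3.29e-08), KRT19 from 256 to 402 (adjusted p = 0.000659) and KRT8 from 327 to 493 (adjusted p = 0.000271), all 3 called at equal totals too. Their summed level was 2061 to 2542 in proliferating, 1802 to 2052 in DMSO, 3619 to 4236 in Palbociclib and 1813 to 1954 in Ruxolitinib libraries. EPCAM, a defining epithelial marker, had means of 32.3 with DMSO and 20.6 with Palbociclib (adjusted p = 0.146), CDH1 had 0 to 17 reads in any library and SFTPC at most 1. Of 5 endothelial markers, 2 were tested and 1, the receptor gene TEK, rose with Palbociclib, from 2422 to 3957 (adjusted p = 1.89e-06), while CDH5 was at 0 in all Palbociclib libraries. The summed endothelial level was 1681 to 1949 in proliferating, 2389 to 2554 in DMSO, 3501 to 4380.1 in Palbociclib and 2247 to 2254 in Ruxolitinib libraries, nearly all of it TEK. The part of these markers in the member values was not tested.

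Ruxolitinib asks the same of JAK inhibition. Only TIMP3 was called, and it was higher, whereas 1.10% of all genes tested were higher and 3.42% lower (4.52% in either direction). With limma 0 members were called lower, while 1 (MMP1) had an unadjusted p under 0.05 and was called by both edgeR and DESeq2. In 4 members (MMP1, MMP2, MMP10 and TIMP3) the groups did not overlap, against 31.9% of all genes tested. Both inhibitor comparisons and the comparison with proliferating cells share the 3 DMSO libraries, so their values are set side by side and no relation between them is given.

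**Figure D2:**
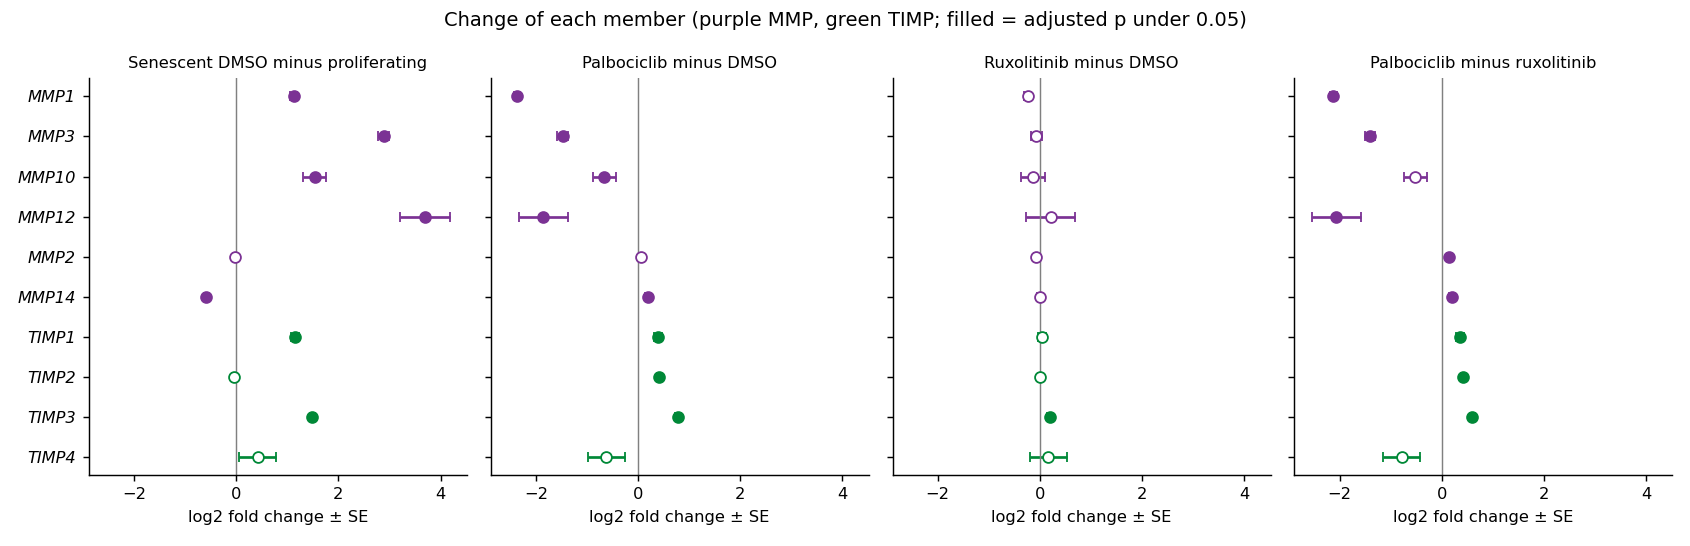
Log2 fold change ± SE (horizontal axes) of each member (vertical axis) in senescent DMSO against proliferating cells, in Palbociclib and Ruxolitinib against DMSO, and in Palbociclib against Ruxolitinib. MMPs are purple and TIMPs green, and filled points have an adjusted p under 0.05. MMP12 is filled by the same rule, but it passed the filter only through the groups in which it is high. Its filled points are therefore not read as calls, and its value against proliferating cells depends on the pseudocount.

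MMP1, the interstitial collagenase that opens the triple helix of fibrillar collagens, was the most abundant of the 3 members called lower with Palbociclib. Its normalized counts were 3036, 2946 and 3048 in proliferating, 6382, 6615 and 6669.7 in DMSO, 1231, 1450.4 and 1146 in Palbociclib and 5414, 5602 and 5601 in Ruxolitinib libraries. No group overlapped another, and the Palbociclib libraries lay below the proliferating ones. Between proliferating and DMSO cells MMP1 rose 2.18-fold (log2 fold change 1.12, SE 0.067, adjusted p = 5.28e-10).

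With Palbociclib, MMP1 was 5.16-fold lower than with DMSO (log2 fold change -2.37, SE 0.067, adjusted p = 1.48e-12). It was called lower in each of 23 alternative analyses, at log2 values from -2.59 to -2.29. The level with Palbociclib was also 2.37-fold below that of proliferating cells (log2 fold change -1.24, adjusted p = 1.19e-10).

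With Ruxolitinib, MMP1 had a log2 difference of -0.24 from DMSO (SE 0.067) and an adjusted p of 0.0529, just outside the threshold. A fit of only these 2 groups gave an adjusted p of 2.62e-06, edgeR gave 0.0416 and DESeq2 gave 0.00804. At equal totals the difference was -0.27 (adjusted p = 0.0269), and after quantile normalization -0.26 (adjusted p = 0.0286). Leaving out Palbociclib library A120, A121 or A119 or proliferating library A126 gave an adjusted p of 0.00189, 0.0294, 0.0395 or 0.0409. Those libraries enter only the shared estimate of the spread, so the difference itself stayed at -0.24. The other 14 of 23 alternative analyses did not call MMP1, with adjusted p values up to 0.203. The call therefore depends on the analysis, while the 3 Ruxolitinib libraries lay below the 3 DMSO libraries.

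MMP3, or stromelysin-1, degrades proteoglycans, laminin and fibronectin and activates the MMP1 precursor. The normalized counts were 72.6, 73.2 and 75.2 in proliferating, 523, 553 and 577 in DMSO, 199, 232 and 165 in Palbociclib and 519, 538 and 513 in Ruxolitinib libraries. The DMSO and Ruxolitinib groups overlapped, and Palbociclib libraries stood between them and the proliferating ones. MMP3 rose 7.38-fold from proliferating to DMSO cells (log2 fold change 2.88, SE 0.10, adjusted p = 1.44e-12).

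MMP3 was 2.79-fold lower with Palbociclib than with DMSO (log2 fold change -1.48, SE 0.10, adjusted p = 2.47e-08), and all 23 alternative analyses called it, at -1.70 to -1.35. Unlike MMP1, it was still higher than in proliferating cells, by 2.65-fold (log2 fold change 1.41, adjusted p = 5.95e-09). The difference between Ruxolitinib and DMSO was -0.072 on the log2 scale (SE 0.10, adjusted p = 0.812).

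MMP10, or stromelysin-2, is close to MMP3 in sequence and substrates and was measured at 11 to 56 reads per library. It had 15.6, 12.2 and 19.0 normalized counts in proliferating, 48.5, 46.2 and 45.1 in DMSO, 24.3, 39.4 and 25.8 in Palbociclib and 43.2, 39.6 and 44.2 in Ruxolitinib libraries. The Palbociclib libraries spread widely, and the highest of them came close to the lowest Ruxolitinib library. MMP10 rose 2.91-fold in DMSO against proliferating cells (log2 fold change 1.54, SE 0.23, adjusted p = 1.61e-05).

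The fall of MMP10 with Palbociclib was 1.58-fold (log2 fold change -0.66, SE 0.23, adjusted p = 0.0253). That call was lost without any of the DMSO libraries A116, A117 or A118 or the Palbociclib libraries A119 or A121, with adjusted p values of 0.0712, 0.0553, 0.0513, 0.0897 and 0.0838 in that order. After quantile normalization the difference shrank to -0.25 (adjusted p = 0.386). Reads of MMP3 and MMP10 could in part be exchanged: of all 31-base stretches in the annotated transcripts of MMP10, 7.11% also occur in MMP3, and 6.75% of those in MMP3 occur in MMP10. For each of the other 8 members this share with any other MMP or TIMP gene was 0%.

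MMP12, the macrophage elastase, was detected at 0 to 28 reads per library. Proliferating libraries had 0, 0 and 1.90 normalized counts, DMSO libraries 12.9, 23.7 and 17.3, Palbociclib libraries 4.43, 4.38 and 3.55 and Ruxolitinib libraries 15.4, 25.2 and 21.7. Each Palbociclib library held 4 reads. The 3 Palbociclib libraries lay below all DMSO and Ruxolitinib libraries and above the proliferating ones. Against a floor of 3 reads per proliferating library, the level was at least 5.80-fold higher in DMSO and at least 6.70-fold higher in Ruxolitinib cells.

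The mean of MMP12 was 18.0 normalized counts with DMSO and 4.12 with Palbociclib, a log2 difference of -1.85 (SE 0.48) that shrank to -1.11 after quantile normalization. Of 7 leukocyte and macrophage markers, 3 (CD14, CD68 and CSF1R) had a mean of at least 10 over all libraries. CD68 was called higher in DMSO than in proliferating cells and below DMSO with Palbociclib. CD14 and CSF1R passed the filter only through groups in which they were high, so they are described without a test. CD14 had means of 4.03 in proliferating and 28.2 in DMSO cells. CSF1R had 9.16 in proliferating, 20.2 in DMSO and 7.51 in Palbociclib cells. The summed level of the 7 was 555 to 578 in proliferating, 1254 to 1338 in DMSO, 703 to 823 in Palbociclib and 1117 to 1179 in Ruxolitinib libraries, almost all of it CD68, a lysosomal protein that fibroblasts also make. The defining markers PTPRC and CD163 had at most 10 and 2 reads in any library, and CD163 had none in proliferating cells. The part of these markers in the MMP12 values was not tested.

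MMP2, or gelatinase A, cleaves denatured collagen and the collagen of basement membranes. Its normalized counts were 10154, 9732 and 9963 in proliferating, 9465, 9862 and 9947 in DMSO, 10285, 9932 and 10341 in Palbociclib and 9334, 9159 and 9299 in Ruxolitinib libraries. All 12 values lay between 9159 and 10341, and the Ruxolitinib libraries were the lowest. Neither DMSO against proliferating cells (log2 difference -0.028, adjusted p = 0.565) nor Palbociclib against DMSO (0.062, adjusted p = 0.246) was called. At the same total per library both differences turned sign and were called, at 0.20 (adjusted p = 0.000375) and -0.16 (adjusted p = 0.00329), so no direction is given for MMP2.

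MMP14, the membrane-type metalloproteinase that activates the MMP2 precursor at the cell surface, was the member that fell in senescent cells. Proliferating libraries had 23345, 23600.3 and 23620.4 normalized counts, DMSO libraries 16361, 14676 and 16125, Palbociclib libraries 17411, 18794 and 17396 and Ruxolitinib libraries 15386, 15486 and 16099. All 9 senescent libraries lay below the 3 proliferating ones. From proliferating to DMSO cells MMP14 fell 1.50-fold (log2 fold change -0.58, SE 0.052, adjusted p = 6.26e-08), with a range of -0.61 to -0.35 over 23 alternative analyses that all called it.

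The higher MMP14 value with Palbociclib than with DMSO was small, at 0.19 on the log2 scale (SE 0.052, adjusted p = 0.00866), and reversed to -0.041 at the same total per library and to -0.10 after quantile normalization. It was also lost without DMSO library A117, the lowest of its group (adjusted p = 0.0538). Ruxolitinib and DMSO cells overlapped in MMP14 (log2 difference -0.0045, adjusted p = 0.982).

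TIMP1, a secreted inhibitor of most MMPs that acts poorly on MMP14, rose in all 3 senescent groups. The normalized counts were 8623, 10070.0 and 8501 in proliferating, 18897, 21159.6 and 20318 in DMSO, 23610.2, 29444 and 26704 in Palbociclib and 20849, 20009 and 21189.5 in Ruxolitinib libraries. The DMSO and Ruxolitinib groups overlapped, and the Palbociclib libraries lay above both. TIMP1 rose 2.22-fold in DMSO against proliferating cells (log2 fold change 1.15, SE 0.079, adjusted p = 2.65e-09).

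Palbociclib was 1.32-fold above DMSO for TIMP1 (log2 fold change 0.40, SE 0.079, adjusted p = 0.000730). This call was lost at the same total per library (0.17, adjusted p = 0.0878) and after quantile normalization (0.059, adjusted p = 0.564). Against proliferating cells the level with Palbociclib was 2.93-fold higher (log2 fold change 1.55, adjusted p = 5.96e-11).

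TIMP2 inhibits MMP2 and MMP14 and also bridges the pair when the MMP2 precursor is activated. It had 22287, 20969.7 and 22039 normalized counts in proliferating, 20708, 21419 and 21408 in DMSO, 28353, 27863 and 28270.3 in Palbociclib and 20969, 21094 and 21377 in Ruxolitinib libraries. Proliferating, DMSO and Ruxolitinib libraries overlapped, and all 3 Palbociclib libraries stood above them. The difference between DMSO and proliferating cells was -0.039 on the log2 scale (SE 0.044, adjusted p = 0.437) and 0.19 at the same total per library (adjusted p = 0.000633). With Palbociclib TIMP2 was 1.33-fold above DMSO (log2 fold change 0.41, SE 0.044, adjusted p = 2.37e-06), a call lost after quantile normalization (0.053, adjusted p = 0.343) and kept in the other 22 analyses.

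TIMP3, the inhibitor that is held in the matrix and also blocks ADAM17 and several ADAMTS proteases, had the largest rise among the inhibitors. Normalized counts were 9822, 9283 and 10246 in proliferating, 26440.5, 27608 and 28079 in DMSO, 47659.8, 46363 and 47149.7 in Palbociclib and 30314, 31782 and 31517 in Ruxolitinib libraries. No group overlapped another. TIMP3 was 2.80-fold higher in DMSO than in proliferating cells (log2 fold change 1.49, SE 0.050, adjusted p = 5.60e-13).

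TIMP3 was a further 1.72-fold higher with Palbociclib than with DMSO (log2 fold change 0.78, SE 0.050, adjusted p = 6.84e-09), and each of the 23 alternative analyses called it, at values from 0.26 to 0.80. Relative to proliferating cells the level with Palbociclib was 4.81-fold higher (log2 fold change 2.27, adjusted p = 2.28e-15). With Ruxolitinib it was 1.14-fold above DMSO (log2 fold change 0.19, SE 0.050, adjusted p = 0.0407). The Ruxolitinib call was lost without any of the DMSO or Ruxolitinib libraries and without A125 or A121, with adjusted p values of 0.0594 to 0.183.

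TIMP4, an inhibitor best known from heart and fat tissue, had 11 to 40 reads per library. Proliferating libraries had 13.5, 24.4 and 33.3 normalized counts, DMSO libraries 21.8, 27.2 and 46.3, Palbociclib libraries 12.2, 29.6 and 19.5 and Ruxolitinib libraries 30.1, 36.0 and 36.1. The Palbociclib and Ruxolitinib libraries did not overlap, all other groups did, and no comparison of TIMP4 was called. Its largest difference was -0.79 on the log2 scale between Palbociclib and Ruxolitinib (SE 0.36, adjusted p = 0.0946), which passed without Palbociclib library A120 (-1.09, adjusted p = 0.0305) and at equal totals (-0.98, adjusted p = 0.0347).

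TIMP1, TIMP3 and TIMP4 each lie inside an intron of a synapsin gene on the opposite strand (SYN1 intron 5, SYN3 intron 6 and SYN2 intron 5 of the GENCODE annotation), and whether strand was used in counting is not given in the sources used here. SYN1 had 47.7 to 76.2 normalized counts, SYN3 had 3.47 to 18.0 and SYN2 had 1.90 to 14.2 over the 12 libraries. These host levels are far below those of TIMP1 and TIMP3. For TIMP4 they are of the same order, so reads of TIMP4 and SYN2 may not be fully separated.

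Set directly against Ruxolitinib, Palbociclib cells had 5 members higher (MMP2, MMP14, TIMP1, TIMP2 and TIMP3) and 2 of the 9 lower (MMP1 and MMP3), where 22.8% of all genes tested were higher and 17.6% lower (40.4% in either direction). MMP1 was 4.36-fold lower (log2 fold change -2.12, adjusted p = 5.63e-12) and MMP3 2.65-fold lower (-1.41, adjusted p = 5.81e-08). TIMP3 was 1.51-fold higher (0.59, adjusted p = 2.18e-07), a call lost after quantile normalization (0.090, adjusted p = 0.195). The MMP2 difference of 0.14 (adjusted p = 0.0191) turned to -0.065 and the MMP14 difference of 0.19 (adjusted p = 0.00906) to -0.012 at the same total per library. At equal totals the TIMP1 difference went from 0.36 (adjusted p = 0.00212) to 0.16 (adjusted p = 0.127), and MMP10 went from -0.52 (adjusted p = 0.0775) to a called -0.72 (adjusted p = 0.0158). The TIMP2 difference of 0.41 was called at equal totals (0.21, adjusted p = 0.000682) and not after quantile normalization (0.088, adjusted p = 0.133). None of the 9 members overlapped between these groups, against 51.8% of all genes tested that did not.

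Relative to proliferating cells, Palbociclib cells had 5 of the 9 members higher and 2 lower, against 35.2% and 38.6% of all genes tested (73.8% in either direction). Ruxolitinib cells also had 5 higher and 2 lower, against 32.6% and 39.5% (72.2% in either direction). In each of these comparisons 7 of the 9 did not overlap between the groups, against 70.9% of all genes with Palbociclib and 76.2% with Ruxolitinib. With Palbociclib the 2 lower members were MMP1 and MMP14, and the 5 higher ones were MMP3, MMP10, TIMP1, TIMP2 and TIMP3. MMP12 was at 4 reads per Palbociclib library, at least 1.33-fold above the floor of 3 reads. With Ruxolitinib the lower members were MMP14 and MMP2, and the MMP2 difference of -0.10 (adjusted p = 0.0418) turned to 0.10 at the same total per library (adjusted p = 0.0357). MMP1 with Ruxolitinib remained 0.88 above proliferating cells on the log2 scale (adjusted p = 9.51e-09) and TIMP3 was 1.67 above (adjusted p = 1.32e-13).

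A ratio of 2 members within a library does not depend on the factor by which that library is scaled, though quantile normalization can change it. Protease-to-inhibitor ratios were therefore computed from normalized counts per kilobase and are described without a test. The MMP1 to TIMP1 ratio was 0.137, 0.114 and 0.140 in proliferating, 0.132, 0.122 and 0.128 in DMSO, 0.0203, 0.0192 and 0.0167 in Palbociclib and 0.101, 0.109 and 0.103 in Ruxolitinib libraries. Proliferating and DMSO libraries overlapped: MMP1 and TIMP1 had risen by about the same factor. The mean ratio with Palbociclib was 6.78-fold below that with DMSO. Ruxolitinib libraries lay below the proliferating and DMSO libraries by less.

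The MMP3 to TIMP1 ratio behaved differently between proliferating and DMSO cells, with means of 0.00345 ± 0.000345 (SD, n = 3) and 0.0116 ± 0.000489. With Palbociclib it was 0.00317 ± 0.000495, overlapping the proliferating libraries, and with Ruxolitinib 0.0107 ± 0.000588, overlapping the DMSO libraries.

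The MMP3 to MMP1 ratio separated all 4 groups. It was 0.0259, 0.0269 and 0.0267 in proliferating, 0.0886, 0.0904 and 0.0936 in DMSO, 0.175, 0.173 and 0.156 in Palbociclib and 0.104, 0.104 and 0.0992 in Ruxolitinib libraries. Each DMSO library was above every proliferating library and each Palbociclib library above every other: MMP3 rose more than MMP1 and fell less.

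For the surface pair, the MMP14 to TIMP2 ratio was 1.03, 1.11 and 1.06 in proliferating, 0.780, 0.676 and 0.743 in DMSO, 0.606, 0.666 and 0.607 in Palbociclib and 0.724, 0.724 and 0.743 in Ruxolitinib libraries. With this transcript length, MMP14 exceeded TIMP2 per kilobase in the 3 proliferating libraries and in no other. The MMP2 to TIMP2 ratio averaged 0.475 ± 0.00641 (SD, n = 3) in proliferating, 0.479 ± 0.00394 in DMSO, 0.376 ± 0.00495 in Palbociclib and 0.455 ± 0.00632 in Ruxolitinib cells, lowest with Palbociclib. Summed over the group means, the 6 MMPs came to 10764, 10689, 8502 and 9999.97 normalized counts per kilobase in proliferating, DMSO, Palbociclib and Ruxolitinib cells, and the 4 TIMPs to 19895, 37951, 52538 and 39502. Unlike the ratios, these sums depend on how the libraries are scaled, and they were not computed at equal totals.

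**Figure D3:**
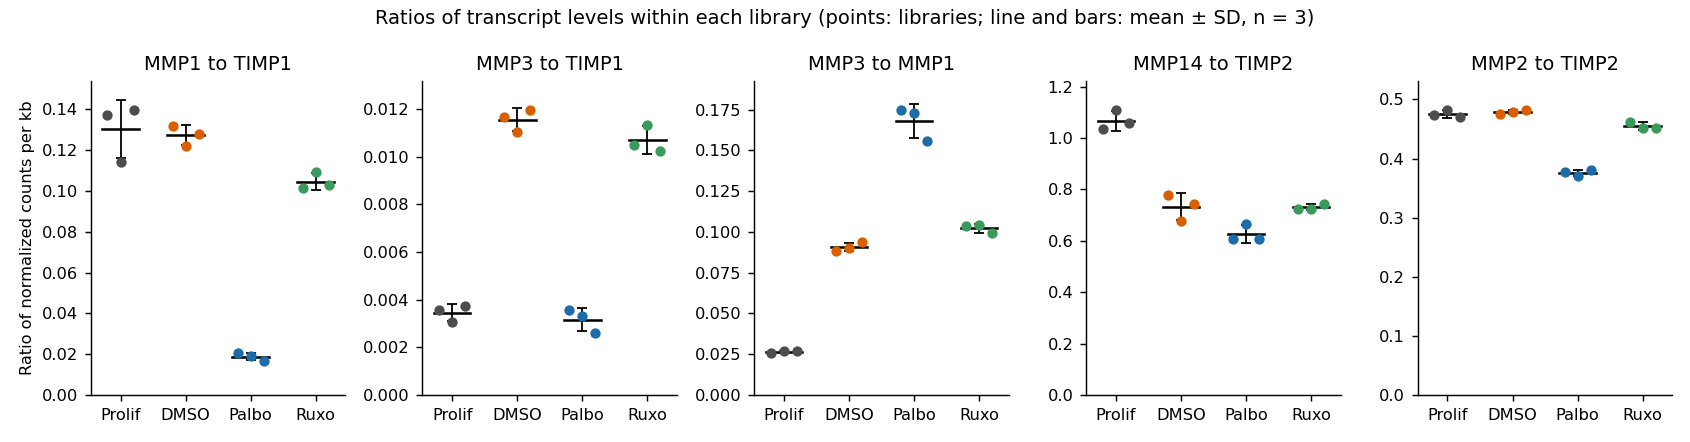
Ratios of transcript levels per kilobase within each library (vertical axes) for the 4 groups (horizontal axes), with points for libraries and lines with bars for the mean ± SD of 3. MMP1 to TIMP1 is alike in proliferating and DMSO libraries (means 0.130 and 0.127) and lowest with Palbociclib (0.0188).

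MMP10, MMP1, MMP3 and MMP12 lie next to one another on the minus strand of chromosome 11, within a cluster that also holds MMP7, MMP20, MMP27, MMP8 and MMP13. In GENCODE v44 on GRCh38, MMP10 spans chr11:102770502-102780628, MMP1 chr11:102789401-102798160, MMP3 chr11:102835801-102843609 and MMP12 chr11:102862736-102874982. The other members lie apart, MMP2 on chromosome 16, MMP14 on 14, TIMP1 on X, TIMP2 on 17, TIMP3 on 22 and TIMP4 on 3.

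Of the neighbours, MMP8, the neutrophil collagenase, had means of 1.99 normalized counts in proliferating, 11.0 in DMSO, 5.82 in Palbociclib and 9.82 in Ruxolitinib cells. MMP13, or collagenase-3, was at 0 reads in all proliferating libraries and at 2 to 3 in DMSO libraries. Both were below the filter on low values and were not tested. MMP7, MMP20 and MMP27 had 0 to 5 reads per library.

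**Figure D4:**
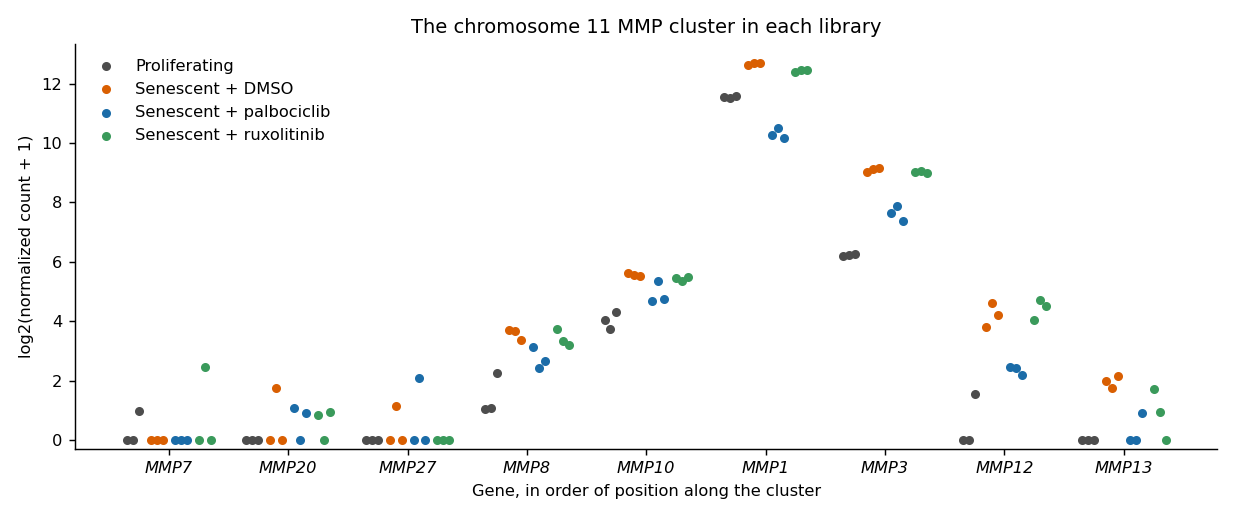
Levels of the 9 MMP genes of the chromosome 11 cluster, in genomic order (horizontal axis), in each library of the 4 groups (vertical axis, log2 of the normalized count + 1). MMP10, MMP1, MMP3 and MMP12 are lower in the Palbociclib than in the DMSO libraries, and MMP7, MMP20 and MMP27 have 0 to 5 reads.

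RefSeq promoter sequences (GRCh38.p14) were at hand for MMP10, MMP14, TIMP1, TIMP3 and TIMP4, and were not used here for MMP1, MMP2, MMP3, MMP12 and TIMP2. The 150 bases before the RefSeq start are shown for MMP10, as a member of the chromosome 11 cluster that fell with Palbociclib, for TIMP1 and TIMP3, as inhibitors that rose, and for MMP14, as the member that fell in senescence. They are written 5′ to 3′ on the strand of the gene, with capitals for TGANTCA, the AP-1 element through which FOS and JUN proteins bind many MMP promoters, and for GGGCGG, the GC box bound by SP1, or its reverse complement CCGCCC. They cover chr11:102780629-102780778 (minus strand), chrX:47582286-47582435, chr22:32801555-32801704 and chr14:22836435-22836584 (plus strand) in that order.
MMP10: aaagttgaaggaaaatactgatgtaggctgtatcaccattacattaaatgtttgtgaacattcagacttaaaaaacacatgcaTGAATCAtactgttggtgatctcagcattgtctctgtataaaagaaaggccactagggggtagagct
TIMP1: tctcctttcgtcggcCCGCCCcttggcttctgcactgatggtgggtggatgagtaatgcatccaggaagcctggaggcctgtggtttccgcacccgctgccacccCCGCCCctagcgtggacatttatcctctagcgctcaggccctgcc
TIMP3: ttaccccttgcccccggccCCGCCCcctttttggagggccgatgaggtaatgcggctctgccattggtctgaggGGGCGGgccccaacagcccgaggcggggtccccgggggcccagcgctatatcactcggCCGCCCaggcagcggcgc
MMP14: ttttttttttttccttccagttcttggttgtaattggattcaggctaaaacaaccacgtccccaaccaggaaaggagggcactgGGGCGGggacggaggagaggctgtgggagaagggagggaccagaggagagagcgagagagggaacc

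Searched on both strands over 250 bases before the start, MMP10 was the only one of these 5 promoters with TGANTCA. Its match lay 67 bases before the start and reads TGAATCA, which counted because any base was allowed at N. Sequences that differ at another position, such as tgagtaa in the TIMP1 stretch shown, were not searched. MMP10 held no GC box. TIMP3 held 5 GC boxes, TIMP1 held 2 and MMP14 and TIMP4 held 1 each. The motif TTCNNNGAA, bound by STAT factors, was in none of the 5, and AGGAAG, bound by ETS factors of the PEA3 group, was in TIMP1 and TIMP4. Among 35116 RefSeq promoters of the same length, 6.57% held TGANTCA, 6.57% TTCNNNGAA, 28.7% AGGAAG and 42.6% GGGCGG. Within the 150 bases shown, G and C made up 36.7% in MMP10, 54% in MMP14, 63.3% in TIMP1 and 72.7% in TIMP3. These matches describe the sequence and were not measured as binding.

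Other genes of the pathway were taken from lists, and each list's median log2 fold change is given beside its counts. A count near the share of all genes tested is not read as a result about its list. Of 17 other MMP genes 6 were tested. Of these, 3 were higher and 2 lower in DMSO than in proliferating cells, against 33.0% and 39.3% of all genes tested. Their median log2 fold change was 0.78, against -0.049 over all genes tested. With Palbociclib 2 were lower than with DMSO, against 22.3% of all genes (median -0.29, against 0.018 over all genes). After quantile normalization 1 was higher and 1 lower, against 24.2% and 20.2% (median 0.043). The membrane-type MMP15 rose from 27.9 to 99.6 normalized counts in DMSO cells (adjusted p = 6.94e-08) and was at 67.9 with Palbociclib (adjusted p = 0.0106). MMP16, also of the membrane type, fell from 634.6 with DMSO to 452 with Palbociclib (adjusted p = 0.00566). MMP25 had means of 8.01 in proliferating, 20.8 in DMSO, 14.7 in Palbociclib and 33.5 in Ruxolitinib cells. It passed the filter on low values only through the senescent groups, in which it was high. It is therefore described without a test, although the counts and medians of this list include it.

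Of 8 tested activators of MMP precursors, 4 were higher and 1 lower in DMSO against proliferating cells (median 0.22), against 33.0% and 39.3% of all genes. With Palbociclib against DMSO 4 were higher and 2 lower (median 0.071), against 26.0% and 22.3%. At equal totals 1 was higher and 3 lower with Palbociclib (median -0.15), against 8.36% and 46.0%. PLAU, the urokinase that makes plasmin, fell from 24465 to 13930.2 normalized counts with Palbociclib (adjusted p = 6.24e-08). The proprotein convertase FURIN, which activates MMP14, had 2664 normalized counts with DMSO and 3273 with Palbociclib (adjusted p = 7.21e-05, or 0.179 at equal totals). PLAT, the tissue plasminogen activator, rose from 7164 in proliferating to 17982 in DMSO cells (adjusted p = 1.62e-12).

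Among 9 tested other inhibitors and MMP-binding proteins, 5 were higher and 3 lower in DMSO cells (median log2 fold change 0.16), against 33.0% and 39.3% of all genes. With Palbociclib 2 were higher and 3 lower, against 26.0% and 22.3%. The median with Palbociclib was 0.13, turning to -0.094 at equal totals and -0.18 after quantile normalization. RECK, a membrane-anchored inhibitor of MMP14 and MMP2, rose from 3618 with DMSO to 5536 with Palbociclib (adjusted p = 2.35e-07). TFPI2, a secreted serine protease inhibitor, rose from 1031 in proliferating to 4389.6 in DMSO cells (adjusted p = 3.23e-13) and fell to 2522 with Palbociclib (adjusted p = 1.43e-07). Of 21 tested ADAM and ADAMTS proteases, many of which TIMP3 inhibits, 11 were higher and 7 lower in DMSO cells (median 0.32), against 33.0% and 39.3%. With Palbociclib 10 were higher and 5 lower (median 0.15), against 26.0% and 22.3%. At equal totals 4 were higher and 7 lower (median -0.078), against 8.36% and 46.0%. ADAM19 rose from 5716 to 12299 with Palbociclib (adjusted p = 6.70e-09).

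Of 28 tested matrix substrates, 4 were higher and 22 lower in DMSO than in proliferating cells (median log2 fold change -0.95), against 33.0% and 39.3% of all genes. When Palbociclib was compared with DMSO, 17 were higher and 4 lower (median 0.34), against 26.0% and 22.3%. At equal totals the latter split was 12 higher and 8 lower, against 8.36% and 46.0%. After quantile normalization it was 10 and 8, against 24.2% and 20.2%. ELN, which encodes elastin, the substrate of MMP12, fell from 1267 to 110.7 normalized counts in DMSO cells (adjusted p = 3.72e-14) and was at 243 with Palbociclib (adjusted p = 7.83e-08). COL1A1, a chain of the collagen that MMP1 cleaves, was at 401324 in proliferating, 165728 in DMSO, 268524 in Palbociclib and 231249 in Ruxolitinib cells. Against DMSO the adjusted p was 1.36e-07 for Palbociclib and 6.33e-05 for Ruxolitinib. With Ruxolitinib 6 substrates were higher and 2 lower, against 1.10% and 3.42% of all genes (median 0.066, against -0.0028 over all genes).

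Transcription factors of the AP-1, ETS and NF-kB families that bind MMP promoters numbered 21 tested genes. In DMSO cells 7 were higher and 7 lower than in proliferating cells (median 0.036), against 33.0% and 39.3% of all genes. At equal totals 13 were higher and 6 lower, where 46.9% of all genes tested were higher and 26.4% lower. With Palbociclib 1 was higher and 14 lower than with DMSO (median -0.38), against 26.0% and 22.3%. At equal totals these counts were 1 and 20, where 8.36% of all genes tested were higher and 46.0% lower. ATF3, an AP-1 family member, rose from 95.4 to 1152 normalized counts in DMSO cells (adjusted p = 8.49e-15), and fell to 198 with Palbociclib (adjusted p = 1.70e-12) and to 665 with Ruxolitinib (adjusted p = 4.23e-06). FOSB rose from 31.2 to 156 in DMSO cells (adjusted p = 5.98e-07) and fell to 73.0 with Palbociclib (adjusted p = 0.00190). Other factors went the other way in DMSO against proliferating cells. ETV4 fell from 735 to 291 (adjusted p = 5.44e-09) and ETS1 from 4884 to 2002 (adjusted p = 3.75e-10).

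Of 17 tested ligands and receptors that induce MMPs in fibroblasts, 10 were higher and 4 lower in DMSO cells (median log2 fold change 0.28), against 33.0% and 39.3% of all genes. With Palbociclib 4 were higher and 8 lower (median -0.16), against 26.0% and 22.3%. IL1A, the cytokine interleukin-1 alpha, passed the filter on low values only through the DMSO and Ruxolitinib groups, in which it was high. It is therefore described without a test, although the counts of this list include it. Its means were 5.10 in proliferating, 62.6 in DMSO and 3.45 normalized counts in Palbociclib cells. IL1B had 16.8, 86.8 and 6.86 (adjusted p = 4.82e-05 for DMSO against proliferating cells and 4.00e-06 for Palbociclib against DMSO). With Ruxolitinib 1 gene of this list was higher and 2 were lower, against 1.10% and 3.42% of all genes. Among the lower ones was OSMR, the oncostatin M receptor, which fell from 5791 to 4252 (adjusted p = 0.00682).

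The genes most like each member in level over the 12 libraries were found by Pearson's r, which mostly reflects the 4 group means and is given without a test. MMP3 was closest to EREG (0.995), SERPINB2 (0.992) and GDF15 (0.992). MMP1 was closest to AEN (0.982), PLAU (0.979) and BMP2 (0.977). MMP10 was closest to DDIT3 (0.971), GNAI1 (0.969) and CHMP1B (0.967). MMP12 was closest to OSBP (0.971), WLS (0.9696) and SERPINB2 (0.969), which was also among the 3 nearest genes of MMP3.

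EREG, an EGF receptor ligand, had means of 46.9, 463, 129 and 406 normalized counts in proliferating, DMSO, Palbociclib and Ruxolitinib cells, the same order of groups as MMP3. BMP2 had 291, 919.9, 149.96 and 589, with Palbociclib below proliferating cells as for MMP1. Among the inhibitors, TIMP1 was closest to SMPD1 (0.998), TIMP3 to ADIPOR1 (0.997) and TIMP2 to ERRFI1 (0.993). MMP14 was closest to ZBTB18 (0.989), MMP2 to LRRC8D (0.945) and TIMP4 to SOX13 (0.875).

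**Figure D5:**
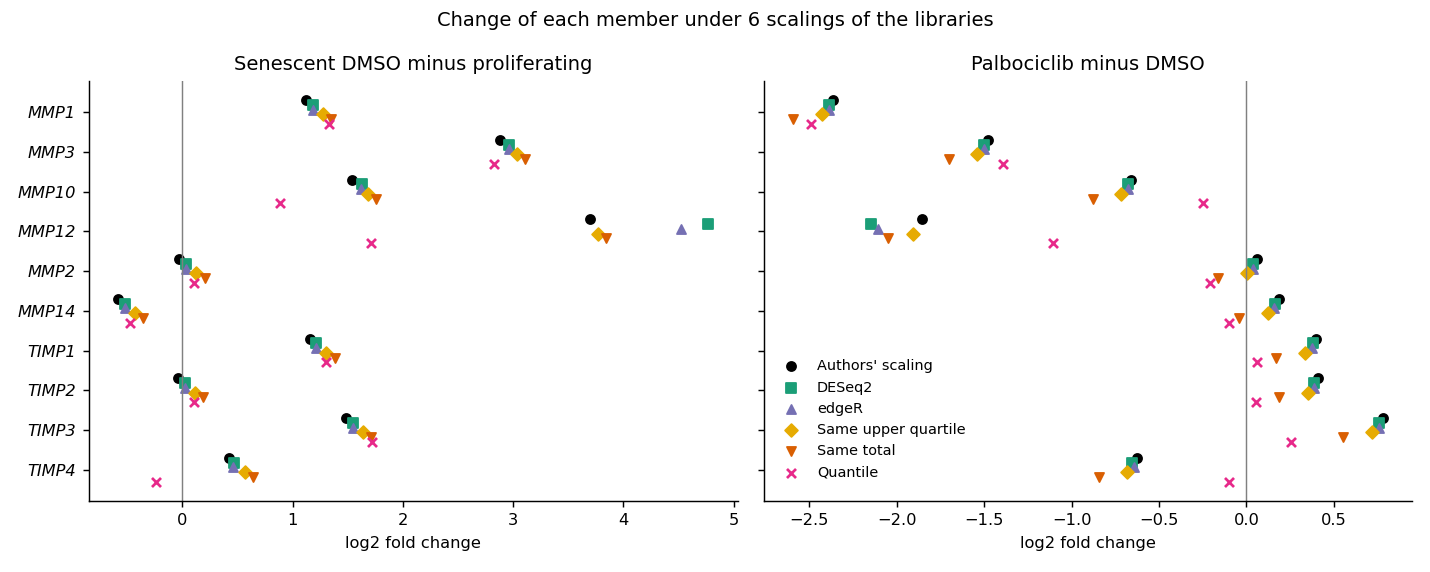
Log2 fold change (horizontal axes) of each member (vertical axis) in senescent DMSO against proliferating cells and in Palbociclib against DMSO, under the authors' scaling, the size factors of DESeq2 and edgeR, and scaling to the same upper quartile, total or quantiles. MMP1 and MMP3 stay below 0 and TIMP3 above 0 with Palbociclib under all 6, while MMP2 and MMP14 lie on both sides of 0.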

How the data were processed

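Poly(A) RNA of 12 IMR90 libraries was sequenced. The authors deposited normalized counts, a signal that is never negative, in 1 table of 16383 genes that ends at Entrez number 140467. The submitters' processing notes name Trimmomatic 0.38.1, HISAT2 2.2.1, featureCounts 2.0.3 and DESeq2 2.11.40.8, with the build GRCh38. Each of 160380 values above 0 was a whole number of reads, at a tolerance of 0.01, so reads were recovered. Columns name a group and a library number but no replicate number, and all 12 were used.

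Values were tested as log2(value + 1) with limma 3.58.1 in R 4.3.3: a linear model of 4 group means, variances that follow the mean, and Benjamini-Hochberg adjustment over 11242 genes with a mean of at least 10, all 10 members among them. Adjusted p-values come from this fit unless another tool is named, and calls are at 0.05. Fold changes are on the log2(value + 1) scale and understate changes of low genes. For MMP12, with at most 3 reads in every proliferating library, folds are bounds against 3 reads per library. Lengths and positions are from GENCODE v44.

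All members are named, besides the 4 largest called changes per list and comparison, given in part, and the 3 genes of highest r with a mean of at least 100. Members and lists were chosen with earlier results of these data known, and the 4 motifs after the promoter sequences had been seen. Alternatives, 23 per result at most, were other pseudocounts, filters and scalings, no variance trend, 2 groups only, each library left out, and edgeR 4.0.16 and DESeq2 1.42.0 on recovered reads. Scalings of the lists were added after seeing the data.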

Additional observations from a re-analysis of the deposited data

How the results depend on the processing

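Over 23 alternative analyses, fewer for members left out by a higher filter, 1256 of 1362 results for single members kept their direction and side of the threshold, and 234 of 276 counts of called members stayed within 1.5 times. No paired analysis was possible because the columns carry no replicate numbers.

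Reversals were confined to MMP2, MMP14, TIMP1, TIMP2 and TIMP4. Between DMSO and proliferating cells MMP2 turned to 0.20 (same total), 0.125 (upper quartile), 0.11 (quantile) and 0.033 with both edgeR and DESeq2, TIMP2 to 0.19, 0.11, 0.10, 0.022 and 0.022 in that order, and TIMP4 to -0.24 (quantile). Between Palbociclib and DMSO, MMP2 turned to -0.16 (same total) and -0.21 (quantile) and MMP14 to -0.041 and -0.10. Between Palbociclib and Ruxolitinib, MMP2 turned to -0.065 and -0.093 and MMP14 to -0.012 and -0.062. MMP2 turned to -0.10 (quantile) between Palbociclib and proliferating cells, and to 0.10 (same total) and 0.066 (upper quartile) between Ruxolitinib and proliferating cells, where TIMP2 turned to 0.16, 0.13, 0.069 (quantile), 0.024 (edgeR) and 0.023 (DESeq2). Between Ruxolitinib and DMSO, MMP14 turned to 0.011 and TIMP2 to 0.014 (upper quartile), and TIMP2 to 0.0025 (edgeR) and 0.00068 (DESeq2).

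With 1 library left out, MMP14 ranged from -0.053 to 0.025, TIMP2 from -0.018 to 0.0062, TIMP1 from -0.0040 to 0.078 and TIMP4 from -0.063 to 0.46 between Ruxolitinib and DMSO, and TIMP4 from -0.55 to 0.11 between Palbociclib and proliferating cells.

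Members higher with Palbociclib than DMSO numbered 2 at the same total and 1 after quantile normalization, and lower ones 2 with a mean of at least 50. Of all genes tested, 8.36% and 24.2% were higher under those 2 scalings, and 21.3% were lower with that filter. Against Ruxolitinib, 2 (same total), 3 (upper quartile) and 0 (quantile) were higher with Palbociclib, and 5 lower at the same total and 3 to 5 with 1 library left out. The shares of all genes tested were 7.53%, 15.1% and 17.6% higher in that order. Lower were 40.3% at the same total and 13.8% to 19.2% with 1 library left out. For Ruxolitinib against DMSO, 0 were higher with no filter, no trend or quantile normalization, 0 or 1 with 1 library left out, and 1 lower at the same total, with quantile normalization, with 2 groups, edgeR or DESeq2, 0 or 1 with 1 library left out. Of all genes tested, 0.628%, 0.756% and 1.70% were higher in that order, and 0.338% to 2.12% with 1 library left out. Lower were 4.18%, 3.49%, 8.88%, 3.58% and 4.00% in that order, and 1.96% to 4.35% with 1 library left out. For Ruxolitinib against proliferating cells 1 was lower with no filter, no trend, all 3 scalings, edgeR and DESeq2, and 1 or 2 with 1 library left out. Among all genes tested, 27.9% to 39.0% were lower in those settings, and 37.3% to 40.7% with 1 library left out. These member counts, and the totals that open this section, are over all 10 members with MMP12. MMP12 passed the filter only through the groups in which it was high, so its part in them is no support. They cannot be set against the counts among 9 given in the Results. In the main analysis the 10 members gave 4 higher and 4 lower for Palbociclib against DMSO, and the 9 without MMP12 gave 4 and 3. Of all genes tested, 26.0% were higher and 22.3% lower. For Palbociclib against Ruxolitinib the 10 gave 5 and 3 and the 9 gave 5 and 2, against 22.8% and 17.6%. For Ruxolitinib against DMSO both sets gave 1 higher and 0 lower, against 1.10% and 3.42%. For Ruxolitinib against proliferating cells the 10 gave 6 and 2 and the 9 gave 5 and 2, against 32.6% and 39.5%. The cause was not tested. Over all genes, scaling to the same total gave 5273 higher and 2970 lower genes in DMSO against proliferating cells, and 940 higher and 5170 lower with Palbociclib against DMSO; the authors' scaling gave 3714, 4420, 2927 and 2505. For MMP12, MMP10 and TIMP4, low read numbers limit the precision.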
